A study of Rattus norvegicus with 9 samples.

Results

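The genes described here encode the peptidases of the brush border, the microvillus surface of proximal tubule cells, and the amino acid and peptide transporters that work beside them. All probe sets of the rat array whose single annotated gene symbol was Slc3a1, Slc7a9, Slc7a7, Slc15a1, Slc15a2, Anpep, Dpep1, Ggt1, Mep1a or Mep1b were taken, which gave 11 of the 15923 probe sets in the table, and 10 of the 10411 genes that had a probe set with a single symbol. Dpep1 had 2 probe sets and the other genes 1 each, and every probe set was kept apart. Kidney RNA came from 9 rats, 4 labelled case and 5 labelled control, with 1 Affymetrix RAE230A array per animal. The series concerns hypotension. The labels give neither the treatment of the case animals nor strain, sex or age, so that case and control are the only descriptions of the groups. Each value is the signal of a group of short probes on a linear scale, already scaled between arrays, and signals of different probe sets cannot be set against each other as amounts of RNA.

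In the proximal tubule, ectopeptidases on the brush border cut filtered peptides into amino acids and very short peptides, which transporters then carry into the cell. Amino acid carriers of this family work as pairs of a heavy subunit, which brings the complex to the membrane, and a light subunit, which does the transport. Slc3a1 encodes the heavy subunit rBAT and Slc7a9 its light partner, and the human forms of both are mutated in cystinuria, in which cystine is lost in the urine. Slc7a7 encodes a light subunit of the basolateral side, where cationic amino acids leave the cell, and its human form is mutated in lysinuric protein intolerance. Slc15a1 and Slc15a2 encode the peptide transporters PEPT1 and PEPT2, of which the first has the lower affinity and lies in the early proximal tubule of the rat, and the second has the higher affinity and lies in its later part.

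The signals of 5 pairs of members were positively correlated past the threshold from animal to animal, as described further on. Of them, Slc3a1 with Anpep had the highest correlation, and that pair passed after median centring but not after quantile normalization. The upstream sequences are shown for the 4 genes of that pair and of Mep1a with Mep1b, which encode the subunits of meprin. Each is the 250 bases before the transcription start that RefSeq gives on the GRCr8 rat assembly, written 5′ to 3′ on the strand of the gene, and capitals mark matches to the motifs named after them.
Mep1a: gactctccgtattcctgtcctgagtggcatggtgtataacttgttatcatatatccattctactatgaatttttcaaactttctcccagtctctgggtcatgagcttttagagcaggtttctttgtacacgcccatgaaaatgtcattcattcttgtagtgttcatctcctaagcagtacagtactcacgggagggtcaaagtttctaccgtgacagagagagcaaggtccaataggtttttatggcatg
Mep1b: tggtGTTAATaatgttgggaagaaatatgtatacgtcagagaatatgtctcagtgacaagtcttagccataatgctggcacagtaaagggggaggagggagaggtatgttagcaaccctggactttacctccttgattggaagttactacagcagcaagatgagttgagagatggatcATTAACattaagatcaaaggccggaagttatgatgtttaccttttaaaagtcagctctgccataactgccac
Slc3a1: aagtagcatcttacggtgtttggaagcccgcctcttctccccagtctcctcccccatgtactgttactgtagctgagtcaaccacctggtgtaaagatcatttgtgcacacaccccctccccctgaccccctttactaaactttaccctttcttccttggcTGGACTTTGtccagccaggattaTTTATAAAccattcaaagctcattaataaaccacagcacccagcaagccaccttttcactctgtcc
Anpep: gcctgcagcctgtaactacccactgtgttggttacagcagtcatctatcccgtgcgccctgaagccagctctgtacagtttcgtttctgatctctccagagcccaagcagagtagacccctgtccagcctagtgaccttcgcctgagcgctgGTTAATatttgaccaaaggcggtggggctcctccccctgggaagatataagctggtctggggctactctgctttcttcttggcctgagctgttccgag

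The Mep1a window is chr9:24971651-24971900 on the plus strand, the Mep1b window chr18:12640791-12641040 on the plus strand, the Slc3a1 window chr6:15394750-15394999 on the minus strand and the Anpep window chr1:143195102-143195351 on the minus strand. The windows of Slc3a1 and Anpep end 1946 and 24346 bases inside the outermost start that RefSeq gives for the gene, and those of Mep1a and Mep1b end at it. All 10 members matched a RefSeq window by symbol. On both strands, 4 motifs were searched, and the only overlap was between the 2 TATAAA matches of Slc3a1. The core of the HNF1 motif, GTTAAT, occurred in 2 of the 10 members, at 246 and 72 bases before the start in Mep1b and at 98 bases before it in Anpep, and in 6.45% of all 33469 windows of this length. CAAAGTCCA, a form of the HNF4 motif, occurred in Slc3a1 alone of the members, 89 bases before the start, and in 0.34% of all windows. TATAAA occurred in Slc3a1 alone of the members, in overlapping matches at 66 and 64 bases before the start, and in 12.93% of all windows. GGGCGG, a GC box, occurred in 0 of the 10 members and in 30.47% of all windows. The GC content of the 250 bases was 42.0% for Mep1a, 41.6% for Mep1b, 48.4% for Slc3a1 and 55.6% for Anpep, with a median of 51.2% over all windows. These matches describe the letters only.

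Array medians of the signal were 45.2 to 55.6, and log2 signals correlated between arrays with r of 0.93 to 0.974. Some markers of the kidney were bright, while others, such as Cldn16 (29.1 to 77.1), Nphs1 (30.2 to 74.1) and Pvalb (1.6 to 6.3), were dim. The 11 proximal tubule markers on the array had a summed signal of 11880 to 16680 in case and 11980 to 16870 in control, and Umod, made by the thick ascending limb, had at least 3706.5 on every array. Of the 6 small intestine markers on the array, another tissue with many of these genes, Cdx2 lay above the intensity filter, a signal near 33.3, with 36.7 to 64.1, and the other 5 lay below it. Fabp2, Si and Apoa4 did not exceed 4.3, 1.8 and 7.8 on any array, while Muc2 and Cdx1 reached 59.5 and 34.8, and the sum of the 6 was 57.5 to 150.0 in case and 96.1 to 154.4 in control. The 3'/5' signal ratio of the actin control probe sets, a measure of RNA shortening, was 1.52 to 3.11 in case and 1.12 to 1.998 in control, and was highest in case animals 7 and 8 (3.05 and 3.11). Judged by the times in the file headers, case animals 3, 5 and 7 shared a first run of the fluidics station (run 1) with control animal 4, case animal 8 shared run 2 with control animals 9, 10 and 11, and control animal 12 was alone in run 3. The summed signal of the 7 smooth muscle and mesangium markers was 300.8 to 376.5 in case and 364.9 to 400.5 in control, and its part in the values of the members was not tested.

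No member differed between case and control kidneys beyond the spread between animals. Of the 10 probe sets above the intensity filter, 0 had an adjusted p under 0.05 in limma, a linear model fitted over all 9519 probe sets above the filter, where 0.00% passed. At an unadjusted p under 0.05 there were 0 of the 10, against 6.69% (2.88% higher and 3.81% lower in case) of all probe sets tested, and none had case and control values that did not overlap, against 1.88%. Their log2 differences, case minus control, ran from -0.11 to 0.25, with a median of -0.034, and 3 lay above 0 and 7 below. Over all probe sets tested the median was -0.017. The 95% interval of the difference lay inside 2-fold in either direction for all 10, as it did for 95.2% of all probe sets tested. The residual SD between animals of a group had a median of 0.34 log2 units over the members and 0.25 over all probe sets tested.

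**Figure D1:**
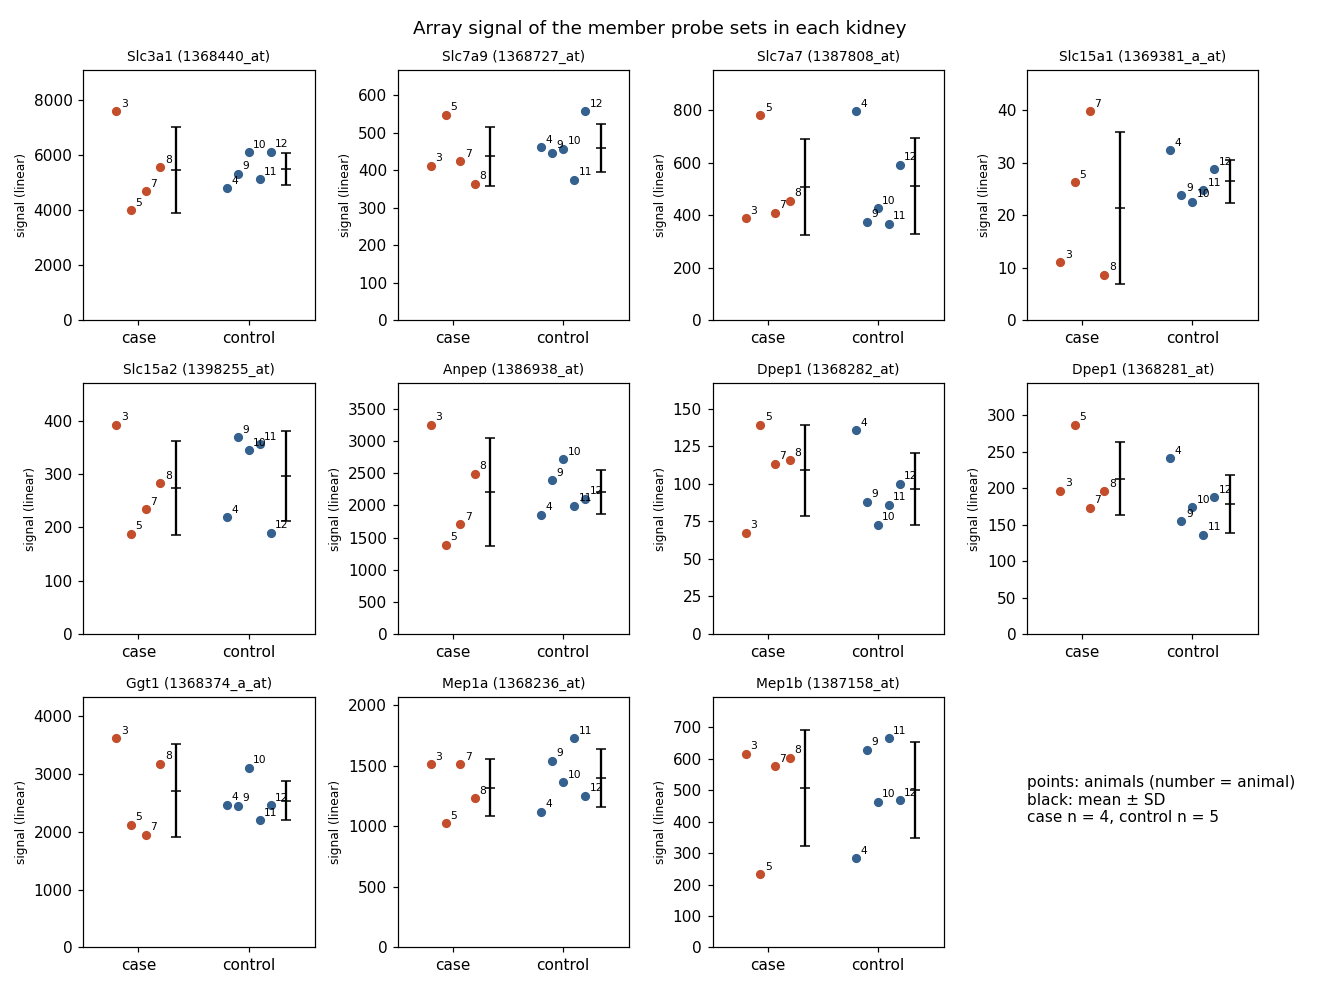
Linear array signal of the 11 probe sets, 1 panel each, with 4 case animals left of 5 control animals, the animal number beside each point, and the mean ± SD in black. The groups overlap in every panel, and case animal 3 has the highest and case animal 5 the lowest Slc3a1 and Anpep signals of all 9.

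Neither subunit of the apical cystine carrier differed between the groups beyond the spread between animals. Slc3a1 (probe set 1368440_at) had signals of 7575.4, 3986.2, 4683.7 and 5551.6 in case animals 3, 5, 7 and 8, against 4790.6, 5314.7, 6097.4, 5115.0 and 6109.8 in control animals 4, 9, 10, 11 and 12. The highest and the lowest of the 9 values were both case animals, and every control lay between them. The mean was 5449 ± 1555 in case and 5486 ± 594.5 in control (SD, n = 4 and 5), a log2 difference of -0.045 ± 0.17 (SE, limma adjusted p = 0.987). Its 95% interval ran from 0.754-fold to 1.25-fold. Slc7a9 (1368727_at) had signals of 411.9, 547.8, 424.2 and 364.1 in case, against 461.3, 446.0, 457.7, 374.2 and 556.5 in control. Case animal 5, the lowest for Slc3a1, was the highest of the case animals for this partner. The log2 difference of Slc7a9 was -0.075 ± 0.14 (SE, limma adjusted p = 0.957), with an interval from 0.765-fold to 1.18-fold.

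Slc7a7 (1387808_at), the basolateral subunit, had signals of 389.4, 781.2, 409.8 and 455.6 in case, against 796.1, 374.8, 427.4, 367.4 and 592.2 in control. Case animal 5 and control animal 4 stood above the other 7 animals, none of which passed 592.2. The groups had almost the same mean, 509.0 ± 183.6 in case and 511.6 ± 183.1 in control (SD, n = 4 and 5), and a log2 difference of -0.0003 ± 0.25 (SE, limma adjusted p = 0.9996). Within fluidics run 1, where control animal 4 was the only control, the difference was -0.67, and within run 2, where case animal 8 was the only case, it was 0.23. Slc7a7 is also made by macrophages. The summed signal of 7 leukocyte markers was 2398, 2599, 1640 and 2042 in case animals 3, 5, 7 and 8, against 3046, 2172, 1873, 1762 and 2170 in control animals 4, 9, 10, 11 and 12, so that its highest values fell on the same control animal 4 and case animal 5. Most of this sum came from Cd74 and Lyz2, with mean signals of 1064 and 960.4 in case and 1090 and 937.4 in control. Of the other markers, Ptprc, Cd3e and Itgam lay below the filter, and the part of leukocytes in the Slc7a7 values was not tested. In whole kidney RNA, fewer cells of a type and less RNA per cell cannot be told apart.

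Neither peptide transporter differed between the groups beyond that spread. Slc15a2 (1398255_at) had signals of 392.2, 188.0, 233.8 and 282.7 in case, against 218.5, 369.4, 344.9, 355.6 and 190.2 in control. Both groups spanned nearly the same range, and the log2 difference was -0.11 ± 0.24 (SE, limma adjusted p = 0.971), with an interval from 0.649-fold to 1.33-fold. Slc15a1 (1369381_a_at) was dim, with signals of 11.1, 26.3, 39.8 and 8.7 in case, against 32.4, 23.8, 22.6, 24.8 and 28.8 in control. It was the one member below the filter, at a signal near 33.3, and was not part of the main test. The case animals held its highest value and its 2 lowest ones. The difference of mean log2 values was -0.41 (exact permutation p = 0.325, 2-sided), and with no filter the limma interval ran from -1.13 to 0.31.

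Among the ectopeptidases, Anpep (1386938_at) encodes aminopeptidase N, which removes single amino acids from the end of peptides. Its signals were 3252.8, 1384.6, 1708.9 and 2493.0 in case, against 1857.6, 2391.2, 2715.9, 1995.6 and 2100.3 in control. As with Slc3a1, case animals 3 and 5 held the highest and the lowest value and enclosed all controls. The means were 2210 ± 836.6 in case and 2212 ± 343.1 in control (SD, n = 4 and 5), and the log2 difference was -0.066 ± 0.22 (SE, limma adjusted p = 0.981). Ggt1 (1368374_a_at) encodes gamma-glutamyltransferase, which starts the breakdown of glutathione outside the cell. It had signals of 3615.9, 2119.1, 1946.0 and 3174.1 in case, against 2467.0, 2455.7, 3107.8, 2200.9 and 2455.8 in control. The case animals again fell on both sides of all controls, and the log2 difference was 0.057 ± 0.18 (SE, limma adjusted p = 0.981). The coefficient of variation of the signal was 28.5% in case and 10.8% in control for Slc3a1, 37.9% and 15.5% for Anpep, and 29.9% and 13.3% for Ggt1. For the other tested members the groups were closer, as with 36.1% and 35.8% for Slc7a7 and 36.3% and 30.4% for Mep1b. The dim Slc15a1 had 67.5% and 15.3%. Whether the groups differ in spread was not tested.

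Dpep1 encodes dipeptidase 1, which splits dipeptides, among them the cysteinylglycine that gamma-glutamyltransferase leaves. Its brighter probe set (1368281_at) had signals of 196.7, 287.0, 173.3 and 196.1 in case, against 241.3, 154.5, 174.1, 135.9 and 187.7 in control. Case animal 5 was the highest of all, control animal 4 the second, and the other 4 controls lay below case animals 3 and 8. The means were 213.3 ± 50.3 in case and 178.7 ± 40.1 in control (SD, n = 4 and 5), a log2 difference of 0.25 ± 0.18 (SE). Its limma p of 0.194 (adjusted p = 0.859) was the smallest among the tested members. The interval ran from 0.905-fold to 1.56-fold. The difference was 0.10 without case animal 5 and 0.36 without control animal 4. The other probe set (1368282_at) had signals of 67.2, 139.1, 113.2 and 115.5 in case, against 135.6, 87.9, 72.7, 85.9 and 99.9 in control. Case animal 5 and control animal 4 were the highest here too, but case animal 3 was the lowest of all 9, and the log2 difference was 0.15 ± 0.21 (SE, limma adjusted p = 0.933), or 0.023 without case animal 5 and 0.36 without case animal 3. Within fluidics run 1 both probe sets were lower in case, by log2 differences of -0.17 and -0.39, and within run 2 they were higher, by 0.34 and 0.47.

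Mep1a and Mep1b encode the alpha and beta subunits of meprin, a metalloprotease that is abundant on the brush border of the rodent kidney. Mep1a (1368236_at) had signals of 1514.0, 1024.2, 1514.2 and 1233.3 in case, against 1118.4, 1539.8, 1366.0, 1726.7 and 1253.1 in control. Mep1b (1387158_at) had signals of 616.7, 232.6, 576.7 and 603.8 in case, against 283.9, 628.9, 463.3, 664.9 and 467.8 in control. Case animal 5 was the lowest and control animal 4 the second lowest of the 9 for both subunits. The log2 differences were -0.086 ± 0.16 for Mep1a and -0.024 ± 0.30 for Mep1b (SE, limma adjusted p = 0.957 and 0.998). The Mep1b interval, from 0.629-fold to 1.54-fold, was the widest of the 10 tested probe sets. Without case animal 5 the Mep1b difference was 0.31, and with the fluidics run as a block it was 0.34, still with no call. Without the 2 arrays with the highest actin ratios the Mep1b difference was -0.34, also with no call.

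**Figure D2:**
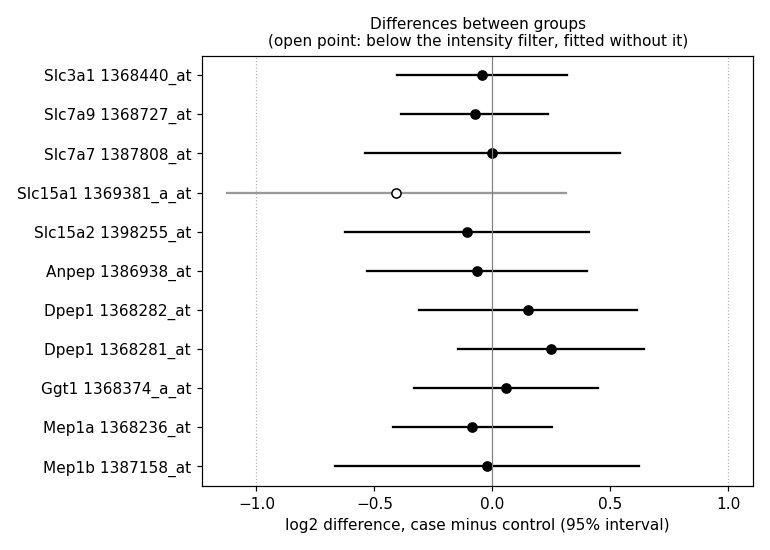
Log2 difference, case minus control, of each of the 11 probe sets, with its 95% interval from limma, where the dotted lines mark a 2-fold difference in either direction. All intervals include 0, and those of the 10 tested probe sets stay inside the dotted lines, while the interval of Slc15a1, drawn open because it was fitted without the filter, reaches -1.13.

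The question whether partner genes had changed unequally was asked within each array, from the log2 signal of 1 gene minus that of the other. Slc3a1 minus Slc7a9 differed between the groups by 0.031, Mep1a minus Mep1b by -0.062 and Slc15a1 minus Slc15a2 by -0.30 (exact permutation p = 0.921, 0.794 and 0.667, 2-sided, and 0.921 for each when adjusted over these 3). The case animals spread more widely than the controls in all 3 measures, with SDs of 0.58, 0.47 and 1.15 log2 units in case and 0.17, 0.27 and 0.60 in control, a difference that was not tested.

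The genes did vary from animal to animal, and some pairs of them varied together or in opposite directions. Over the 9 kidneys, 11 of the 45 pairs of members, each gene taken at its brightest probe set, had a Pearson correlation past the threshold (exact permutation over all 362880 orders of the arrays, 2-sided, adjusted over the 45 pairs), 5 positive and 6 negative, and 6 pairs passed by Spearman's rho. Of the 36 pairs among the 9 members above the filter, 10 passed, or 27.8%, all with r of at least 0.82 in size. Of all 25536231 pairs of the 7147 genes above the filter, 2.11% had an r of that size. Pairs share genes and arrays and are not independent of each other, so no p is given for this share. The cutoff was taken from the weakest member pair past the threshold. The 9 members also lay at percentile 84.9 of mean log2 signal or above, while the 7147 genes reached down to the filter at percentile 40. Genes of like signal were not compared, so the shares do not show whether the members are unusual. Case animal 5 carried much of the evidence. Without it 2 pairs passed, Slc7a7 with Mep1a and Anpep with Ggt1, although all 11 kept their sign. After quantile normalization 8 of the 11 passed.

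**Figure D3:**
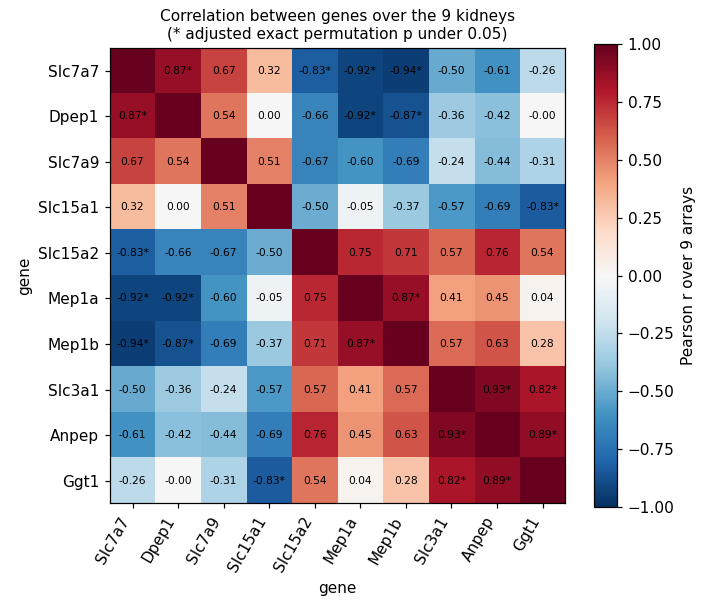
Pearson r between members over the 9 kidneys, each gene at its brightest probe set, where a star marks an exact permutation p under 0.05 after adjustment over the 45 pairs. A block with Mep1a and Mep1b and a block with Slc3a1, Anpep and Ggt1 are positive inside, and Slc7a7 and Dpep1 are negative against the meprin genes (r between -0.87 and -0.94).

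The meprin subunits varied together, with r = 0.87 and rho = 0.85 (n = 9, exact permutation p = 0.00119 and 0.00607, adjusted 0.0107 and 0.0456 over 45 pairs, and 0.00357 and 0.0182 over the 3 partner pairs). Without the 2 animals farthest from the median Mep1a signal, case animal 5 and control animal 11, r was 0.77, without those farthest from the median Mep1b signal, case animal 5 and control animal 4, it was 0.65, and with the group means taken out it was 0.88. Without case animal 5 alone r was 0.79 and did not pass (n = 8, exact permutation adjusted p = 0.0700). For the subunits of the cystine carrier no correlation passed. Slc3a1 and Slc7a9 had r = -0.24 and rho = -0.13 (n = 9, exact permutation p = 0.542 and 0.744, unchanged by adjustment over the 3 partner pairs). Their r was 0.40 without the animals farthest for Slc3a1, case animals 3 and 5. It was -0.073 without those farthest for Slc7a9, case animal 5 and control animal 12. The peptide transporters had r = -0.50 and rho = -0.62 (n = 9, exact permutation p = 0.191 and 0.0857, adjusted 0.286 and 0.129), and r was -0.57 without case animals 3 and 8.

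Slc7a7 and Dpep1, the latter at its brighter probe set 1368281_at only, ran against the meprin genes. Slc7a7 had r = -0.92 with Mep1a and -0.94 with Mep1b (n = 9, exact permutation adjusted p = 0.00471 and 0.0110), and Dpep1 had r = -0.92 and -0.87 with them (n = 9, exact permutation adjusted p = 0.0067 and 0.0156). The corresponding rho was -0.95, -0.90, -0.90 and -0.72, of which the first 3 passed the adjustment. Without the 2 animals farthest from the median of Slc7a7, case animal 5 and control animal 4, r with Mep1a and Mep1b was -0.82 and -0.74, and without those farthest for Dpep1, case animal 5 and control animal 11, it was -0.78 and -0.73. The relation of Dpep1 with Mep1b was weaker, at -0.41, without the 2 animals farthest from the median of Mep1b, case animal 5 and control animal 4, so that it rested largely on them. After median centring, Dpep1 did not pass with Mep1a or Mep1b (r = -0.78 and -0.73, n = 9, exact permutation adjusted p = 0.0524 and 0.0716). Slc7a7 also ran against Slc15a2 (r = -0.83, rho = -0.83, n = 9, exact permutation adjusted p = 0.0214 and 0.0531), a pair that did not pass after quantile normalization (r = -0.75, n = 9, exact permutation adjusted p = 0.0729). With Dpep1 it ran in parallel (r = 0.87, rho = 0.80, n = 9, exact permutation adjusted p = 0.0124 and 0.0622). Here r was 0.56 without the 2 animals farthest for Slc7a7, case animal 5 and control animal 4. It was 0.81 without the 2 farthest for Dpep1, case animal 5 and control animal 11. Without case animal 5 alone r was 0.80 and did not pass (n = 8, exact permutation adjusted p = 0.0700).

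Slc3a1, Anpep and Ggt1 were positively correlated in the deposited scaling and after median centring, but the correlations of Slc3a1 did not pass after quantile normalization. Slc3a1 and Anpep had r = 0.93 and rho = 0.90 (n = 9, exact permutation adjusted p = 0.0107 and 0.0228), Anpep and Ggt1 r = 0.89 and rho = 0.85 (n = 9, exact permutation adjusted p = 0.0107 and 0.0456), and Slc3a1 and Ggt1 r = 0.82 and rho = 0.78 (n = 9, exact permutation adjusted p = 0.0241 and 0.0705). Without case animals 3 and 5 these r were 0.77, 0.87 and 0.67. After quantile normalization, Slc3a1 had r = 0.62 with Anpep and 0.18 with Ggt1 (n = 9, exact permutation adjusted p = 0.158 and 0.717), while Anpep and Ggt1 had r = 0.86 (n = 9, exact permutation adjusted p = 0.0118). The remaining pair past the threshold, Slc15a1 and Ggt1 (r = -0.83, rho = -0.72, n = 9, exact permutation adjusted p = 0.0214 and 0.104), included the dim Slc15a1 probe set, and r was -0.62 without case animals 3 and 8. With the group means taken out, the 11 pairs had r of at least 0.84 in size. After centring within fluidics runs, on the 8 arrays of runs 1 and 2, it was at least 0.76, and after the actin ratio was regressed out at least 0.81.

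**Figure D4:**
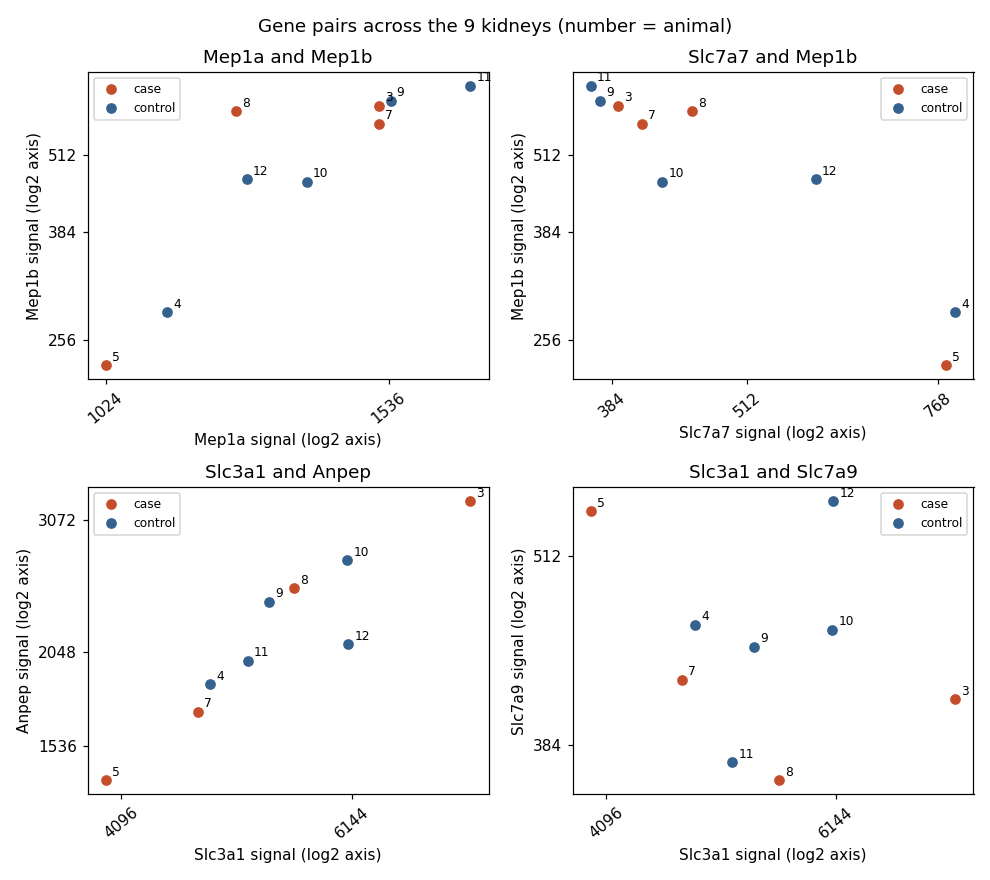
Signals of 4 gene pairs in the 9 kidneys on log2 axes, with case and control in separate colours and the animal number beside each point. Mep1a with Mep1b and Slc3a1 with Anpep rise together (r = 0.87 and 0.93), Slc7a7 with Mep1b runs the other way (r = -0.94), and the partners Slc3a1 and Slc7a9 show no clear relation (r = -0.24).

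Case animal 5 and control animal 4 were alike in this pattern, being high in Slc7a7 and both Dpep1 probe sets and low in Mep1a and Mep1b. Their actin ratios were 1.52 and 1.66, and both were washed in run 1. Case animals 3 and 7 of the same run had the highest and the third highest Mep1b signals among case animals and Slc7a7 signals of at most 409.8. The summed signal of 5 podocyte markers, cells of the glomerulus and so of the cortex, was 531.4, 800.6, 666.8 and 628.2 in case animals 3, 5, 7 and 8, against 756.8, 642.3, 558.3, 614.0 and 725.2 in control animals 4, 9, 10, 11 and 12. Its 3 highest values fell on case animal 5 and control animals 4 and 12, which were also the 3 highest for Slc7a7. The summed signal of the 11 proximal tubule markers was highest in the same 3 animals, with 16680 in case animal 5, 16870 in control animal 4 and 16690 in control animal 12. The sum of 6 endothelial markers was highest in case animal 5 and control animal 4 (1013 and 923.5), as was that of the leukocyte markers. Those of smooth muscle and mesangium and of small intestine were highest in control animal 4 (400.5 and 154.4). Other sums peaked elsewhere. Collecting duct, red blood cell and adrenal cortex were highest in control animal 10 (2650, 2469 and 61.1). Loop of Henle and distal tubule was highest in case animal 8 (10910) and liver in case animal 3 (1307). The part of any of these cell types in the pattern was not tested.

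**Figure D5:**
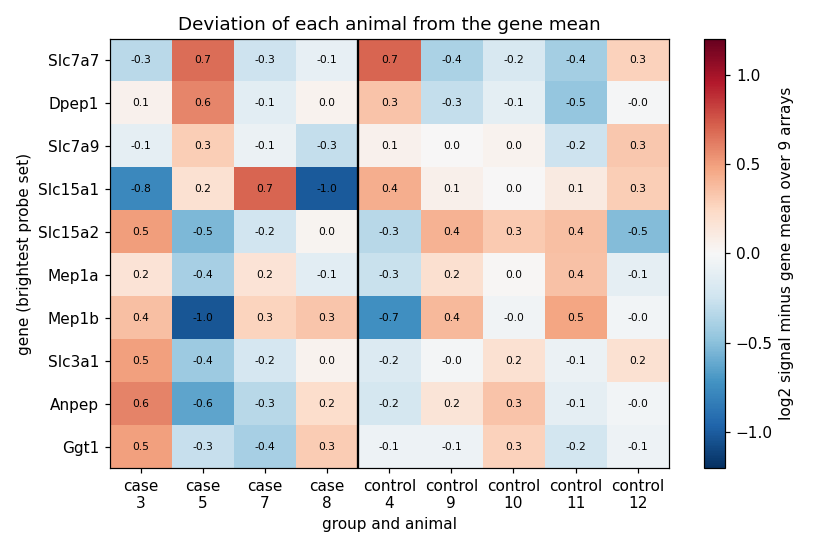
Log2 signal of each of the 10 genes, at its brightest probe set, minus the gene's mean over the 9 arrays, with 4 case animals left of the line and 5 controls right of it. Case animal 5 and control animal 4 are high in Slc7a7 and low in Mep1b, while case animal 3 is high in Slc3a1, Anpep and Ggt1.

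Genes of the same pathway outside the members also gave no call. Among the 8 tested of 16 other brush border and tubular peptidases, 0 passed, 4 were above 0 and 4 below, with a median log2 difference of 0.0019, where 48.2% of the 7147 genes tested lay above 0 with a median of -0.0077. Enpep, aminopeptidase A, which cleaves angiotensin II, had 824.9 ± 149.2 in case and 612.5 ± 87.2 in control (SD, n = 4 and 5), a log2 difference of 0.42 ± 0.15 (SE, limma unadjusted p = 0.0156), but its other probe set differed by -0.034 ± 0.19. It was the 1 of these 8 with a limma unadjusted p under 0.05, against 5.79% of the 7147 genes. Of the 13 tested among 30 other amino acid transporters, 0 passed, 5 were above 0 and 8 below, with a median of -0.092. Slc6a6, the taurine transporter, had 244.7 ± 41.0 in case and 330.0 ± 65.7 in control (SD, n = 4 and 5), a log2 difference of -0.42 ± 0.16 (SE, limma unadjusted p = 0.0223), and its other probe set differed by -0.97 ± 0.40. It was the 1 of the 13 transporters with a limma unadjusted p under 0.05. Slc3a2, the heavy subunit that pairs with Slc7a7, differed by 0.33 ± 0.20 (SE).

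All 12 cytosolic hydrolases of dipeptides and acylated peptides were tested, and 0 passed, although 11 lay above 0, with a median of 0.16. Their summed signal was 7549 to 9595 in control. Case animals fell on both sides of that range, with 11550 and 10380 in case animals 3 and 8 and 7209 in case animal 5. Acy3, aminoacylase 3, differed by 0.32 ± 0.18 (SE), and Aspa, aspartoacylase, the 1 below 0, by -0.24 ± 0.17 (SE). Of the 11 tested brush border scaffold and microvillus genes 0 passed, with 7 above 0 and a median of 0.028. The brightest Nherf1 probe set, for a scaffold that holds transporters at the brush border, differed by -0.22 ± 0.11 (SE), and its other probe set by -1.91 ± 0.47 (SE). The counts and medians of the lists take each gene at its brightest probe set, so that the latter value is not in them. Of the 6 tested genes of the gamma-glutamyl cycle, which rebuilds glutathione, 0 passed and 2 lay above 0. Chac1, which breaks glutathione down inside the cell, had 137.1 ± 91.7 in case and 69.5 ± 15.3 in control (SD, n = 4 and 5), a log2 difference of 0.74 ± 0.33 (SE, limma unadjusted p = 0.0444). A limma unadjusted p under 0.05 was found for 1 of these 6 genes, 0 of the 12 hydrolases and 0 of the 11 scaffold and microvillus genes. Among all genes tested the share was 5.79%.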

How the data were processed

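The deposited values are linear signal intensities, 1 for each probe set of an array, which the authors had scaled: with 2% trimmed off both ends, array means were 100.02 to 100.03. Chip type, fluidics station and run times are per the file headers, and the sources used here do not give the summarising software or detection calls. The 57 control probe sets were left out of the test. Symbols came from the platform annotation, checked by Entrez ID against RefSeq genes of GRCr8. All 11 member probe sets matched.

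Values were used as log2(signal + 5.03), the pseudocount being 10% of the median signal of 50.3, so that differences of dim genes are understated. Probe sets above the 40th percentile of mean log2 signal, 9519 in all, were fitted with limma 3.58.1 in R 4.3.3 (lmFit, then eBayes with an intensity trend, 2-sided, Benjamini-Hochberg over all of them, threshold 0.05). The exact permutation tests used all 126 splits of the arrays, where the smallest p possible is 0.00794. The fit was tested on simulated data. The labels name the animals as separate samples and pair none of them, and their number limits the precision. Members, lists and tests were chosen with earlier results of these data known. Of each list, the 4 genes with the smallest p could be named.

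The fit was repeated with median centring or quantile normalization, a pseudocount of 1% or 50% of the median, the 60th percentile as filter or none, array weights, eBayes with no trend, the fluidics run as a block and within runs, the actin ratio as a covariate, and animals left out. A gap of 10 minutes or more in the start times separated fluidics runs. Correlations of all 45 pairs and their alternatives were chosen after the data had been seen. Tables were made with Python 3.11.15, NumPy 2.4.6, pandas 2.3.3 and SciPy 1.17.1, and figures with matplotlib 3.10.9.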

Additional observations from a re-analysis of the deposited data

Results flagged for a closer look

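The Mep1b signal of case animal 5, 232.6, lay far below the other case animals, which had 576.7 to 616.7, and was marked by Dixon's test for a single value far from the rest of its group. The control group held a like value, 283.9 in control animal 4, which the test did not mark. The log2 signals of 22 groups (11 probe sets in case and in control) were examined and 1 was marked, and chance marks about 1 in 20 groups. Mep1b differed by -0.024 between case and control with this animal and by 0.31 without it.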

How the results depend on the processing

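In all 22 alternatives 0 of the member probe sets passed the threshold and 0 had an unadjusted p under 0.05. The smallest adjusted p over the alternatives was 0.560, for Dpep1 1368282_at within run 2, and the smallest unadjusted p 0.0541, for Dpep1 1368281_at without control animal 4. The median difference of all probe sets was -0.041 as deposited and 0.047 after median centring, which gave log2 differences of 0.044 for Slc3a1, 0.013 for Slc7a9, 0.088 for Slc7a7, 0.022 for Anpep, 0.0028 for Mep1a and 0.065 for Mep1b, while quantile normalization gave -0.039 for Ggt1. The run as a block gave 0.068 for Slc3a1, -0.22 for Slc7a7, 0.087 for Anpep, 0.15 for Ggt1 and 0.34 for Mep1b. Within run 1 the values were 0.12 for Slc3a1, -0.67 for Slc7a7, 0.24 for Slc15a2, 0.088 for Anpep, -0.39 for Dpep1 1368282_at and -0.17 for 1368281_at, -0.0032 for Ggt1, 0.25 for Mep1a and 0.61 for Mep1b, and within run 2 they were 0.015 for Slc3a1, -0.22 for Slc7a9, 0.23 for Slc7a7, -1.07 for Slc15a1, -0.33 for Slc15a2, 0.086 for Anpep, 0.47 for Dpep1 1368282_at, 0.34 for Dpep1 1368281_at, 0.31 for Ggt1, -0.32 for Mep1a and 0.061 for Mep1b. Slc7a7 differed by 0.042 with array weights and 0.089 once the actin ratio entered the fit. Leaving out case animals 7 and 8, the pair with the highest actin ratios, gave 0.0094 for Slc3a1, 0.060 for Slc7a9 and 0.17 for Slc7a7. The within-array differences were then -0.051 for Slc3a1 minus Slc7a9 and 0.19 for Mep1a minus Mep1b. Other values moved in these actin settings without a change of sign. Dpep1 1368281_at went from 0.25 to 0.36 with the actin ratio in the fit and to 0.43 without case animals 7 and 8. Mep1b went from -0.024 to -0.25 and -0.34 in the same settings. Dpep1 1368282_at shrank, from 0.15 to 0.044 and 0.038. The causes were not tested.

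Leaving out each animal in turn gave -0.22 to 0.092 for Slc3a1, -0.19 to 0.0060 for Slc7a9, -0.22 to 0.17 for Slc7a7, -0.72 to -0.15 for Slc15a1, -0.29 to 0.053 for Slc15a2, -0.28 to 0.13 for Anpep, 0.10 to 0.36 for Dpep1 1368281_at, 0.023 to 0.36 for Dpep1 1368282_at, -0.097 to 0.20 for Ggt1, -0.16 to 0.030 for Mep1a and -0.21 to 0.31 for Mep1b. The within-array differences ran from -0.16 to 0.28 for Slc3a1 minus Slc7a9, from -0.28 to 0.081 for Mep1a minus Mep1b and from -0.67 to 0.071 for Slc15a1 minus Slc15a2. Over all probe sets 0 were called in the main setting, 1 with the pseudocount at 50%, with no filter or with median centring, 76 within run 2, and 0 to 53 when an animal was left out, 53 of them without case animal 5.

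The count of 11 correlated pairs was 11 with either pseudocount, 13 with quantile normalization (8 of the 11, with Slc3a1 and Anpep, Slc3a1 and Ggt1, and Slc7a7 and Slc15a2 lost at r of 0.62, 0.18 and -0.75), 9 with median centring (9 of the 11) and 9 without case animals 7 and 8 (8 of the 11), and 2 to 15 when 1 animal was left out, with 2 without case animal 5 and 7 without case animal 3. The pairs lost with median centring were Dpep1 with Mep1a and Dpep1 with Mep1b, at r of -0.78 and -0.73. All 11 pairs kept their sign in every one of these settings. The 9 arrays limit the precision of each difference, and signals near the filter, such as that of Slc15a1, carry little information about the group.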

Other observations

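The genes whose signal followed a member most closely from animal to animal were read from group-centred log2 signals over the 9 arrays, among 7146 other genes, as a description with no p. For Dpep1 1368281_at, the member probe set with the smallest p, they were Ass1, argininosuccinate synthase of arginine synthesis (r = 0.98), Fads2, a fatty acid desaturase (r = 0.96), and Phgdh, which starts serine synthesis (r = 0.96). These genes differed between case and control by 0.062 ± 0.16, 0.031 ± 0.21 and 0.36 ± 0.26 on the log2 scale (SE). For Slc3a1, they were Neurl3 (r = 0.97), Actr5 (r = 0.96) and Cpsf4 (r = 0.96).

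The 2 Dpep1 probe sets followed each other less closely than several pairs of different genes. Their r was 0.64 and rho 0.52 (n = 9, exact permutation p = 0.0631 and 0.162), and r was 0.73 without case animals 3 and 5. Case animal 3 was 1 of the brighter animals at 1368281_at, with 196.7, and the lowest of all at 1368282_at, with 67.2.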
